A study of Mus musculus with 10 samples.

Results

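S100 calcium-binding proteins were followed in mouse cortical neurons exposed to lactacystin, an inhibitor that binds the proteasome and stops the cell from clearing ubiquitin-tagged proteins. The members were the genes S100a1, S100a4, S100a6, S100a8, S100a9, S100a10, S100a11, S100a13 and S100b, taken by gene symbol from the annotation of both array designs, without use of any measured value. Of the 9, 8 are among the 7417 genes named by a probe set that both designs carry, and S100a11 has a shared probe set annotated to several symbols. In all the members had 12 shared probe sets, and 3 more on the U74Av2 design alone. Primary neurons from the cortices of foetal Swiss albino mice (gestation day 15 to 16) were treated on day 5 of culture with 1 µM lactacystin, diluted from a DMSO stock into serum-free NB medium, or were left as controls, and RNA was taken at 24 h or 48 h. There were 2 control arrays and 3 lactacystin arrays at each time, 10 Affymetrix arrays in all. The labels do not say whether controls received the solvent or whether replicates were separate cultures, so each p-value covers only the variation among these arrays, part or all of which may be technical.

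S100 proteins are small proteins built around a pair of EF-hand loops, the helix-loop-helix fold that holds a calcium ion, and most of them act as dimers that open a binding face when calcium rises. They have no enzyme activity of their own: inside the cell they dock onto annexins, cytoskeletal proteins and ion channels, and outside the cell some of them signal through the receptor RAGE, the product of Ager. S100A10 is the exception that has lost calcium binding. It is permanently in the open form and pairs with annexin A2 in a tetramer at the membrane, while S100A11 makes a similar complex with annexin A1. In brain, S100B is best known as a protein of astrocytes, and S100A8 and S100A9 together form calprotectin, an abundant protein of neutrophils.

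Signal is the MAS5 summary of a probe set on a linear scale, scaled in each array to a trimmed mean of 500. A change is a difference of log2(scaled signal + 32) between groups from limma, fitted over the 10 arrays with their design in the model. It carries a standard error (SE) and a p-value adjusted after Benjamini and Hochberg for 6984 tested probe sets, and it passed where the adjusted p was under 0.05. The added 32 makes this scale understate the change of dim genes. In each group a single sample was hybridised to U74A (replicate 3 in the 48 h lactacystin group, replicate 1 in the others), and the other 6 samples to its revision U74Av2. Values within each design are therefore given beside the main ones. The number of arrays limits the precision, above all in the control groups. Of the neuron markers, Stmn2 was the brightest, with signals from 5732 to 14356. Other cell types were also represented, as the radial glial gene Fabp7 ran from 8838 to 14769.

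Of the 9 members, 6 had a probe set bright enough to be tested. At 24 h, S100a10 and the probe set of S100a11 rose, 2 of the 6, while 8.20% of all probe sets tested rose. At 48 h, S100a6 and S100a13 rose as well, making 4 of the 6, against 6.77% of all probe sets. Over both times together 3 members rose (S100a6, S100a10 and the S100a11 probe set), against 9.52%. No member fell in any of these comparisons. The median change of the 6 was 0.32 at 24 h and 1.04 at 48 h, and that of all probe sets was -0.03 and 0.04. All 4 members that rose had signals above 54.8, the lowest mean that was kept for testing, on every array. In RNA from a whole culture, fewer cells of a type and less RNA per cell cannot be told apart.

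**Figure D1:**
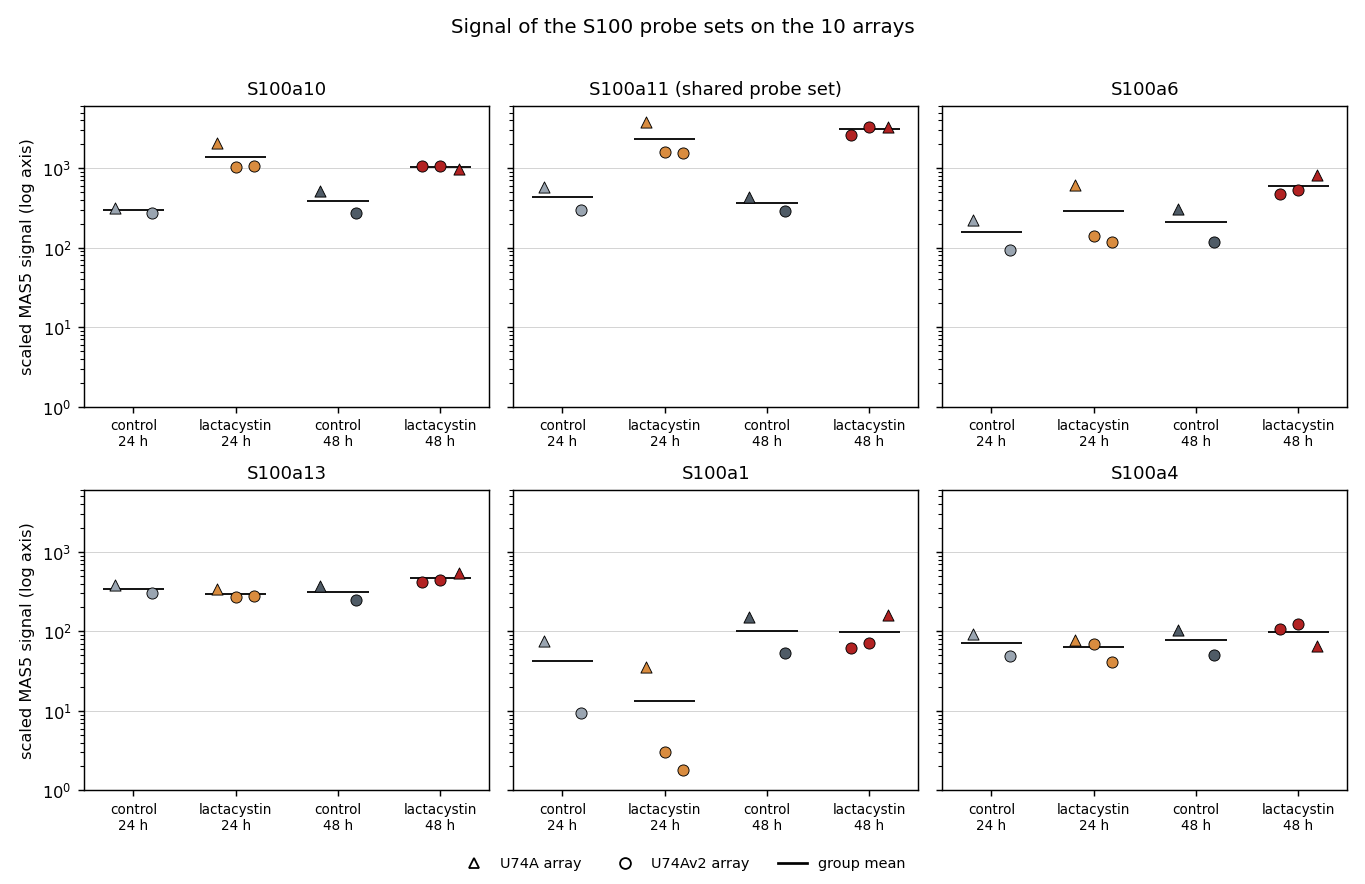
Scaled MAS5 signal (log axis) of the probe set that stands for each of the 6 tested members, by group; triangles are U74A arrays, circles U74Av2 arrays and bars group means. S100a10 and the S100a11 probe set lie above their controls at both times (lowest lactacystin signals 973 and 1566), S100a6 and S100a13 only at 48 h, and S100a1 and S100a4 overlap their controls at both times. The share of all probe sets that separate in this way was not counted.

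The stretch just upstream of the gene start is shown for S100a11, S100a6 and S100a13, whose probe sets rose, and for Anxa2, which rose at the same times as the S100a11 probe set. RefSeq promoter windows (GRCm38.p6) were matched for Anxa1, for Anxa2 and for 8 of the 9 members, all except S100a10. The 250 bases before the start are printed 5′ to 3′ on the strand of the gene, in lower case, with each match to TGANTCA, the AP-1 site, or TGACNNNGC, the core of the antioxidant response element, on either strand in capitals.
S100a11, chr3:93520246-93520495, plus strand: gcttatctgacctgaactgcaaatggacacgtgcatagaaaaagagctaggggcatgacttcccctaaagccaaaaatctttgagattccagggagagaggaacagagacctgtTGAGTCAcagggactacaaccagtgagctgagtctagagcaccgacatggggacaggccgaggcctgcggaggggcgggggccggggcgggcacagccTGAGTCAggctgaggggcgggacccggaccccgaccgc
Anxa2, chr9:69453433-69453682, plus strand: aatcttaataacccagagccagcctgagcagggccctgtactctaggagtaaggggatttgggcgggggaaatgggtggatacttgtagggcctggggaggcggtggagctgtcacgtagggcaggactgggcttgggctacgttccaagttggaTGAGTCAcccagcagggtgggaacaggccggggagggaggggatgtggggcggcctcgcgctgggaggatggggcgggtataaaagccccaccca
S100a6, chr3:90612644-90612893, plus strand: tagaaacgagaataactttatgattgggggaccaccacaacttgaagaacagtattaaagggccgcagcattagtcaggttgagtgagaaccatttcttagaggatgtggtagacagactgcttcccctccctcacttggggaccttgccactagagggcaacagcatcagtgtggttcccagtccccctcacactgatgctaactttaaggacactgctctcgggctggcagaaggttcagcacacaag
S100a13, chr3:90514185-90514434, plus strand: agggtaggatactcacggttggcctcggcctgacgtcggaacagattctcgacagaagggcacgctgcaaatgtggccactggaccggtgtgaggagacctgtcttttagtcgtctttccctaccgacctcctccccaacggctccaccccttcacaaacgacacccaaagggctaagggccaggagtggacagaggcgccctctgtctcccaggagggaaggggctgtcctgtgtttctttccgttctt
The window of S100a11 held TGAGTCA 2 times, beginning 136 and 38 bases before the start, and that of Anxa2 held it 1 time, 95 bases before the start. None of the other 7 member windows found held TGANTCA. The window of Anxa1, which is not printed, held neither TGANTCA nor a GC box. Anxa1 also passed at both times, with a limit given below with the annexins. TGANTCA occurs in 6.75% of all 32851 windows of this length. The antioxidant core was in none of the windows of the 8 members, of Anxa1 or of Anxa2, against 10.2% of all windows. A GC box (GGGCGG, either strand) came 3 times in S100a11 and 3 times in Anxa2, and once in S100a9, against 32.7% of all windows with at least 1. The heat shock pair GAANNTTC came once, in S100a6, 18 bases before the start, and in 6.69% of all windows. TATAAA stood in the windows of S100a4 and S100a8 (31 and 30 bases before the start), of Anxa2 (17 bases) and of Anxa1 (32 bases). It was in 12.4% of all windows. The cyclic AMP element TGACGTCA was in none of these windows, against 1.55% of all. A match describes these letters and is not evidence of binding.

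S100a10 encodes the annexin A2 partner, which carries plasminogen activation to the cell surface and helps several ion channels and the serotonin receptor Htr1b reach the membrane. Its signal was 314 and 276 in the controls at 24 h and 2069, 1027 and 1074 with lactacystin. At 48 h the controls gave 512 and 269 and the lactacystin arrays 1053, 1058 and 973. The lowest lactacystin array lay above the highest control at both times, and the single highest value, 2069, came from the U74A array of the 24 h group. The rise was 2.12 ± 0.22 (log2 ± SE, n = 2 and 3, adjusted p = 0.000109 in limma), 4.36-fold, at 24 h. At 48 h it was 1.46 ± 0.22 (adjusted p = 0.00225 in limma), 2.76-fold. Within U74A the change was 2.60 at 24 h and 0.88 at 48 h, and within U74Av2 it was 1.81 and 1.85. The effect at 48 h minus that at 24 h was -0.66 ± 0.31 (adjusted p = 0.326 in limma), with -1.72 within U74A and 0.04 within U74Av2. The 48 h call was lost without control replicate 2 (1.20, adjusted p = 0.0624) and passed without control replicate 1 (1.70, adjusted p = 0.0133). It was also lost without the design covariate (1.39, adjusted p = 0.0645).

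A second S100a10 probe set, dim and present on U74Av2 alone, differed from the first at 24 h. Its signals were 143 in the single control and 85.4 and 73.5 with lactacystin at 24 h, and 47.3 in the control and 137 and 152 with lactacystin at 48 h. The change was -0.65 ± 0.23 at 24 h (adjusted p = 0.147 in limma on the 6 U74Av2 arrays) and 1.15 ± 0.23 at 48 h (adjusted p = 0.0474). So it passed at 48 h in the same direction as the first probe set and had the opposite sign at 24 h, where it did not pass.

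Anxa2, annexin A2 itself, followed S100a10 closely. Its signals were 306 and 336 in controls and 1835, 1201 and 1210 with lactacystin at 24 h, then 391 and 365 in controls and 1256, 1365 and 911 with lactacystin at 48 h. No lactacystin array overlapped the controls. Anxa2 rose by 2.01 ± 0.21 at 24 h (adjusted p = 0.000105 in limma) and by 1.54 ± 0.21 at 48 h (adjusted p = 0.00103). Of all named genes tested, Anxa2 had the pattern most like that of S100a10 over the 10 arrays, with r = 0.994 after the design effect was removed, and Perp, a membrane protein of the p53 programme, came next with r = 0.986. The points share the same arrays, and control and lactacystin arrays form separate clouds, so such an r mostly follows the difference between treated and control cultures. Across the 6 lactacystin arrays alone, the r between S100a10 and Anxa2 was 0.976. This r rests largely on the U74A arrays of 24 h and 48 h, which held the extremes. With design removed, S100a10 was 10.807 and 9.742 there and Anxa2 10.858 and 9.873, in log2. The U74Av2 lactacystin arrays ran only from 10.279 to 10.341 for S100a10 and from 10.277 to 10.458 for Anxa2.

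**Figure D2:**
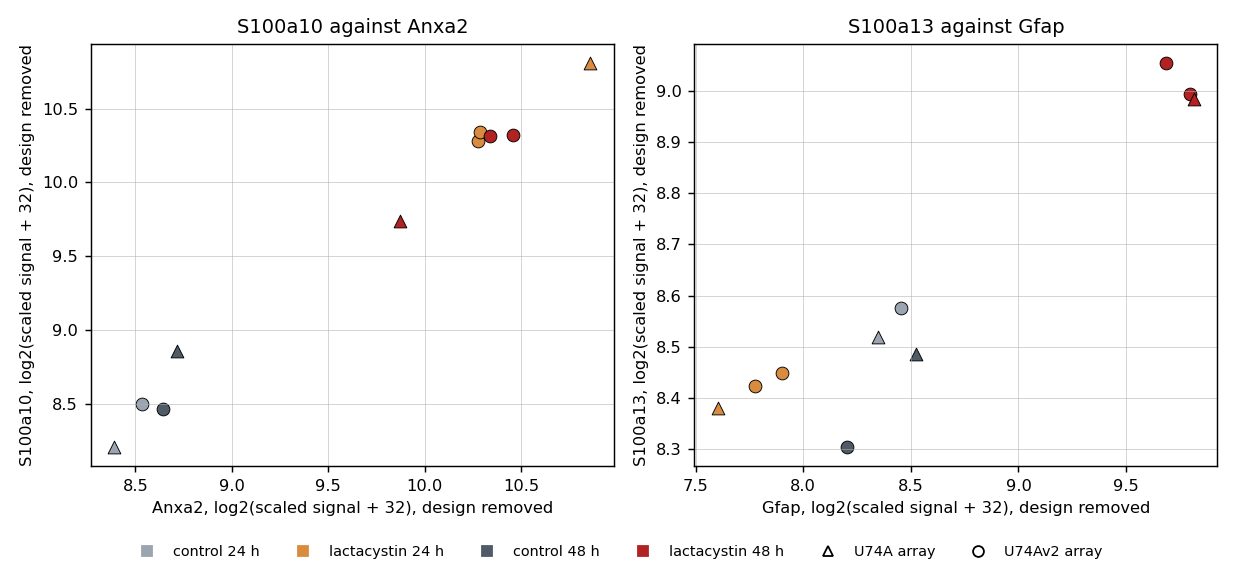
S100a10 against Anxa2 and S100a13 against Gfap, each as log2(scaled signal + 32) with the array design effect removed, 1 point per array; colours are the 4 groups, triangles U74A and circles U74Av2. S100a10 and Anxa2 rank the U74A lactacystin array of 24 h highest and that of 48 h lowest among the treated arrays, and S100a13 and Gfap are highest in the 3 lactacystin arrays at 48 h.

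S100a11 encodes the annexin A1 partner, a protein involved in membrane repair and in the growth arrest of keratinocytes. Its probe set is annotated to S100a11 (chromosome 3) and to its pseudogenes S100a11-ps (chromosome 12) and Gm12854 (chromosome 4), whose RNA cannot be told apart from that of S100a11 here, so the values are those of the shared probe set. Signals were 582 and 295 in the controls at 24 h and 3779, 1594 and 1566 with lactacystin. At 48 h they were 430 and 290 in controls and 2599, 3312 and 3286 with lactacystin. The groups were far from overlapping at either time. This probe set rose by 2.38 ± 0.21 (adjusted p = 4.91e-05 in limma), 5.20-fold, at 24 h and by 3.12 ± 0.21 (adjusted p = 1.53e-05), 8.66-fold, at 48 h. Of the tested member probe sets it had the largest change at both times. Changes within U74A were 2.63 and 2.84, and within U74Av2 2.30 and 3.21. The difference between the times was 0.74 ± 0.30 (adjusted p = 0.252 in limma). The genes with the most similar pattern over the 10 arrays were Nfe2l2, which encodes the oxidative stress factor NRF2 (r = 0.989), and Acadl, an enzyme of fatty acid oxidation (r = 0.987). These r values also mostly follow the difference between treated and control cultures. Over the 6 lactacystin arrays alone they were 0.762 for Nfe2l2 and 0.914 for Acadl.

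S100a6 encodes calcyclin, a partner of the ubiquitin ligase adaptor encoded by Cacybp, and is known for high levels in dividing and astroglial cells. Its signal was 222 and 93.3 in controls and 605, 141 and 116 with lactacystin at 24 h. At 48 h it was 307 and 119 in controls and 469, 525 and 808 with lactacystin. The groups overlapped at 24 h, where 2 of the 3 lactacystin arrays lay below the U74A control, and were separate at 48 h. U74A arrays were higher than U74Av2 arrays in all 4 groups. The change at 24 h was 0.71 ± 0.25 (adjusted p = 0.0823 in limma), 1.33 within U74A and 0.35 within U74Av2, and it did not pass. It passed there without lactacystin replicate 3 of 24 h (0.90, adjusted p = 0.043) and without lactacystin replicate 3 of 48 h (0.75, adjusted p = 0.0423). Without lactacystin replicate 1 of 24 h, the U74A array, the change dropped to 0.31 (adjusted p = 0.346). At 48 h S100a6 rose by 1.65 ± 0.25 (adjusted p = 0.00238 in limma), 3.14-fold, with 1.31 within U74A and 1.81 within U74Av2, a call that was lost without the design covariate (1.45, adjusted p = 0.341).

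The difference between the S100a6 effects was 0.94 ± 0.36 (adjusted p = 0.223 in limma), -0.02 within U74A and 1.45 within U74Av2. It passed in the fit without lactacystin replicate 1 of 24 h, the U74A array with the signal of 605 (1.29, adjusted p = 0.0264). No member passed in this comparison by the probe set that stands for its gene, and 0.415% of all probe sets were higher there. Cacybp itself, at 707 to 1270, changed by 0.36 ± 0.13 at 24 h (adjusted p = 0.0793 in limma) and 0.06 ± 0.13 at 48 h (adjusted p = 0.84). The genes most like S100a6 were Pltp, a phospholipid transfer protein (r = 0.988), and Rida, a deaminase (r = 0.987).

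S100a13 encodes a protein known for the non-classical release of FGF1 and interleukin 1 alpha. Its signal was 383 and 306 in controls and 344, 272 and 278 with lactacystin at 24 h, and 373 and 248 in controls and 420, 439 and 540 with lactacystin at 48 h. Treated and control arrays overlapped at 24 h and were separate at 48 h. The change was -0.13 ± 0.13 at 24 h (adjusted p = 0.536 in limma) and a rise of 0.62 ± 0.13, 1.53-fold, at 48 h (adjusted p = 0.0116), with 0.50 within U74A and 0.72 within U74Av2. The call at 48 h was lost without control replicate 2 (0.49, adjusted p = 0.151) and without the design covariate (0.56, adjusted p = 0.259). A second shared probe set gave 402 and 226 in controls and 336, 206 and 182 with lactacystin at 24 h, and 387 and 228 in controls and 430, 431 and 628 with lactacystin at 48 h. By that probe set S100a13 changed by -0.23 ± 0.13 at 24 h (adjusted p = 0.279 in limma) and rose by 0.77 ± 0.13 at 48 h (adjusted p = 0.00427). The difference between the times, 0.99 ± 0.18, passed (adjusted p = 0.0255), whereas by the brighter probe set it was 0.75 ± 0.18 (adjusted p = 0.0709). Another probe set, on U74Av2 only, changed by 1.02 ± 0.29 at 48 h (adjusted p = 0.107).

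S100a13 and Gfap, the intermediate filament of astrocytes, had similar patterns (r = 0.951 over 10 arrays), second only to Smoc1, a secreted calcium-binding matrix protein (r = 0.971). Gfap fell by 0.64 ± 0.15 at 24 h (adjusted p = 0.0153 in limma) and rose by 1.40 ± 0.15 at 48 h (adjusted p = 0.000328). Of 11 astrocyte and radial glial markers, 9 were tested: 1 rose and 3 fell at 24 h, and 3 rose and none fell at 48 h, the last being Gfap, Gja1 and Ntsr2. Among all probe sets tested, 8.20% rose and 6.66% fell at 24 h, and 6.77% rose and 3.57% fell at 48 h. The summed signal of these markers was 16925 to 25220 in controls and 13530 to 21624 with lactacystin at 24 h, and 19267 to 27236 in controls and 24522 to 30907 with lactacystin at 48 h. The sum adds linear signals, so it mostly follows Fabp7 and Apoe (mean signals 11695 and 7065), while Gfap had a mean of 429. None of the 9 was under 32 on all arrays. The part of these cells in the S100a6 and S100a13 changes was not tested.

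The smooth muscle genes Tagln and Acta2 also rose at 48 h. Of 10 listed fibroblast, mural and meningeal markers, 8 were tested, and 1 rose at 24 h and 2 at 48 h: Tagln by 1.24 ± 0.27 and 2.12 ± 0.27 (adjusted p = 0.0096 and 0.00068 in limma) and Acta2 by 2.10 ± 0.33 at 48 h (adjusted p = 0.00247). The other 6 (Col1a1, Col3a1, Dcn, Lum, Fn1 and Rgs5) did not pass at either time. The summed signal of the list was 1896 to 1959 in controls and 1979 to 3308 with lactacystin at 24 h, and 1796 to 1797 and 2824 to 4555 at 48 h. None of its 9 genes with a probe set was under 32 on all arrays. At 48 h the higher sum mostly follows Acta2 (mean 296 in controls and 1337 with lactacystin) and Tagln (226 and 1039). Of 12 microglial and macrophage markers 7 were tested, and 1 rose at 24 h and 3 at 48 h: Cd68 (1.41 ± 0.27 and 1.47 ± 0.27), Tyrobp (1.04 ± 0.27 at 48 h) and Ctss (0.76 ± 0.17 at 48 h). Their summed signal was 788 to 1071 in controls and 843 to 1619 with lactacystin at 24 h, and 649 to 1362 and 1121 to 1945 at 48 h, and Itgam was under 32 on all arrays. Tyrobp came above 54.8, the lowest mean kept for testing, only through its 48 h lactacystin group (mean 98.1). Its means were 48.8 and 47.1 in the 24 h control and lactacystin groups, and 41.0 in the 48 h controls. The Tyrobp rise at 48 h is therefore not independent of the filter. Of 10 neuron markers 7 were tested and 2 fell at each time. Stmn2 fell at both (-0.74 ± 0.11 and -0.57 ± 0.11), Syt1 at 24 h alone (-1.48 ± 0.43) and Snap25 at 48 h alone (-0.55 ± 0.15). Nefl, Nefm, Map2 and Eno2 did not pass at either time. Their changes were -0.37, 0.41, -0.74 and 0.19 at 24 h. At 48 h they were -0.40, 0.43, -0.13 and -0.40. The neuron list summed to 14632 to 19231 in controls and 9472 to 12873 with lactacystin at 24 h, and to 18179 to 21416 and 11059 to 18197 at 48 h. This sum mostly follows Stmn2, with a mean signal of 9808 against 2254 for Snap25, the next brightest. None of the 2 tested oligodendrocyte, 2 endothelial and 3 choroid plexus markers passed at either time. Beside these counts, 8.20% of all probe sets rose and 6.66% fell at 24 h, and 6.77% rose and 3.57% fell at 48 h. The part of these cell types in the rises of S100a6, S100a10, S100a13 and the S100a11 probe set was not tested.

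S100a1, the partner of the ryanodine receptor in heart muscle, was dim. It gave 76.5 and 9.43 in controls and 35.5, 3.01 and 1.83 with lactacystin at 24 h, and 150 and 52.9 in controls and 62.6, 71.3 and 160 with lactacystin at 48 h. Treated and control arrays overlapped at both times, and the U74A array was the highest of each group. The change was -0.46 ± 0.22 at 24 h (adjusted p = 0.185 in limma) and 0.17 ± 0.22 at 48 h (adjusted p = 0.704). S100a1 was higher at 48 h than at 24 h among the lactacystin arrays, by 1.52 ± 0.19 (adjusted p = 0.000569 in limma). Among controls the corresponding value was 0.89 ± 0.24 (adjusted p = 0.652). By the direct test, the lactacystin effect at 48 h minus that at 24 h was 0.63 ± 0.31 (adjusted p = 0.341 in limma). S100a1 came above 54.8, the lowest mean kept, only through its 48 h groups (means 102 in controls and 97.9 with lactacystin). Its 24 h means were 43.0 and 13.4, so its change between the times is not independent of the filter. S100a6 and S100a13 also rose between the lactacystin times, by 1.28 ± 0.23 and 0.59 ± 0.11 (adjusted p = 0.00414 and 0.00659 in limma). With S100a1, which the 48 h groups had brought past the filter, this was 3 of the 6 tested members. Of all probe sets, 6.19% rose between these times. Between the control times 0% of probe sets passed in limma, with 391 at an unadjusted p under 0.05. The other pair of S100a1 probe sets was under the filter on low signal. The genes with patterns most like S100a1 were Nrbp2 (r = 0.966) and Slc4a3 (r = 0.965).

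S100a4, known as metastasin and as a marker of fibroblasts, binds the non-muscle myosin encoded by Myh9. Its signals were 93.2 and 48.7 in controls and 78.6, 68.5 and 41.4 with lactacystin at 24 h, and 104 and 50.7 in controls and 106, 125 and 64.9 with lactacystin at 48 h. All groups overlapped. The change was -0.07 ± 0.30 at 24 h (adjusted p = 0.908 in limma) and 0.31 ± 0.30 at 48 h (adjusted p = 0.598), where it was -0.49 within U74A and 0.83 within U74Av2. Its nearest patterns were those of Odf1 (r = 0.937) and Mettl17 (r = 0.935).

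S100b, S100a8 and S100a9 were too dim to be tested. S100b, the astrocyte member, gave 35.9 and 29.3 in controls and 25.3, 24.7 and 24.6 with lactacystin at 24 h, and 63.4 and 45.6 in controls and 36.1, 32.6 and 47.8 with lactacystin at 48 h. The 24 h lactacystin arrays were below their controls by this measure, and the 48 h groups overlapped. S100b was under 32 on 4 of 10 arrays, and the share of all probe sets that separate in this way was not counted. S100a8 ran from 6.12 to 44.0, with 8 of 10 arrays under 32, and S100a9 from 5.04 to 16.7, with 10 of 10 under 32. S100a9 was also below its controls at 24 h, at 5.04 to 9.22 with lactacystin against 11.4 and 11.5. Of 11 neutrophil markers 9 had a probe set, Ngp, Mmp8 and Mmp9 were under 32 on all arrays, and none of the 3 tested passed at 24 h or 48 h. Their summed signal was 385 to 455 in controls and 357 to 443 with lactacystin at 24 h, and 363 to 666 and 409 to 444 at 48 h.

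**Figure D3:**
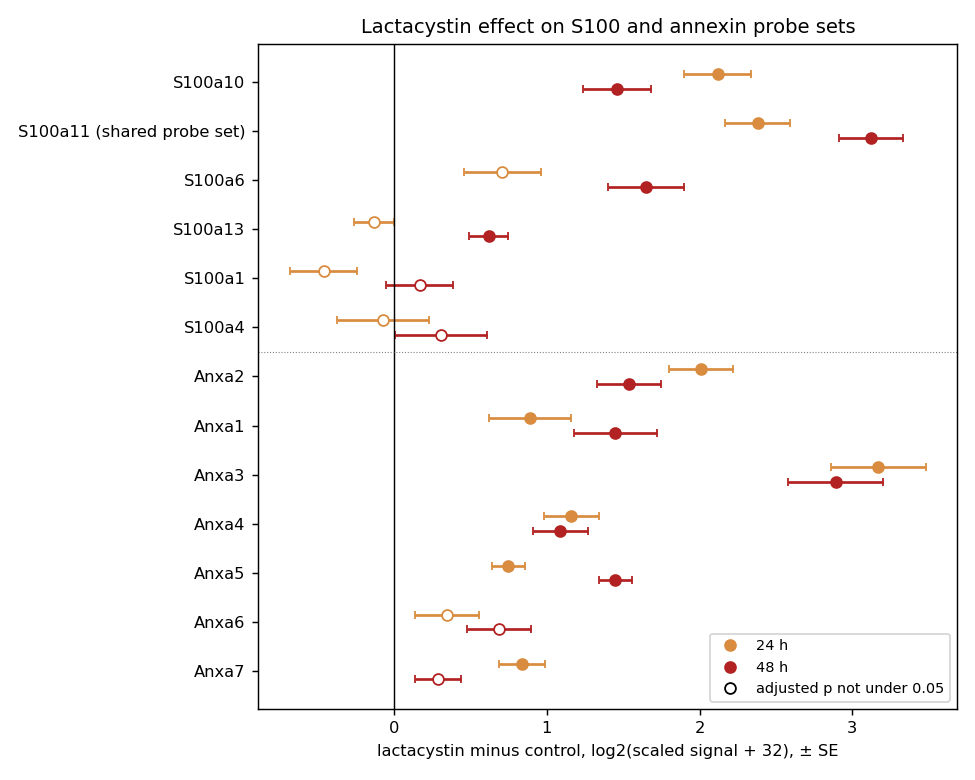
Lactacystin minus control on the log2(scaled signal + 32) scale, with SE, at 24 h and 48 h for the 6 tested members (above the dotted line) and 7 annexins; open circles did not pass the adjusted p of 0.05. The S100a11 probe set (2.38 and 3.12) and Anxa3 (3.17 and 2.89) lie farthest to the right.

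Other genes of the S100 family were mostly dim and none passed. S100a3 changed by -0.24 ± 0.16 at 24 h (adjusted p = 0.361 in limma) and 0.13 ± 0.16 at 48 h (adjusted p = 0.703). S100a14 changed by 0.13 ± 0.23 and -0.04 ± 0.23 (adjusted p = 0.754 and 0.944 in limma); another of its probe sets, on U74Av2 alone, was bright (763 to 1306) and changed by -0.45 ± 0.23 and -0.25 ± 0.23 (adjusted p = 0.279 and 0.564). S100a5 (20.8 to 68.3) and S100a16 (0.821 to 1.65) were under the filter, as was S100g on U74Av2. S100pbp, which encodes a protein that binds S100P, was on U74Av2 alone and changed by -0.34 ± 0.16 and -0.39 ± 0.16 (adjusted p = 0.239 and 0.204).

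Annexins, which bind membrane phospholipids when calcium rises and are the main docking proteins of S100A10 and S100A11, were listed beside the S100 genes. Of 12 listed, 9 had a probe set and 7 were tested, and 6 rose at 24 h (median 0.89), 5 at 48 h (median 1.45) and 7 over both times (median 1.12). Of all probe sets 8.20%, 6.77% and 9.52% rose in these comparisons. Anxa6 did not pass at either time alone, and Anxa7 did not pass at 48 h (0.29 ± 0.15, adjusted p = 0.264 in limma). Anxa1, the S100A11 partner, rose by 0.89 ± 0.27 at 24 h (adjusted p = 0.0486 in limma) and by 1.45 ± 0.27 at 48 h (adjusted p = 0.00695). It was dim, with signals from 7.84 to 148. Anxa3 rose by 3.17 ± 0.31 and 2.89 ± 0.31 (adjusted p = 8.98e-05 and 0.000335 in limma), and Anxa5, the phosphatidylserine-binding annexin, by 0.75 ± 0.11 and 1.45 ± 0.11 (adjusted p = 0.00123 and 3.94e-05). Anxa6 was 0.35 ± 0.21 and 0.69 ± 0.21 (adjusted p = 0.294 and 0.0574 in limma).

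Among receptors and other binding partners of S100 proteins, 13 of 23 listed genes were tested; 3 rose and 1 fell at 24 h (median 0.30), and 2 rose at 48 h (median 0.17). Of all probe sets, 8.20% rose and 6.66% fell at 24 h, and 6.77% rose and 3.57% fell at 48 h. Plat, the tissue plasminogen activator that works on the S100A10 and annexin A2 complex, rose by 1.31 ± 0.15 at 24 h (adjusted p = 0.000176 in limma) and 1.16 ± 0.15 at 48 h (adjusted p = 0.000697). Myh9, the myosin bound by S100A4, rose by 1.03 ± 0.15 and 0.62 ± 0.15 (adjusted p = 0.00137 and 0.0274 in limma). Mdm2, the ubiquitin ligase of p53, rose by 1.30 ± 0.14 at 24 h (adjusted p = 0.000133 in limma) and was 0.41 ± 0.14 at 48 h (adjusted p = 0.091). Syt1, the calcium sensor of synaptic vesicles, fell at 24 h, by 1.48 ± 0.43 (adjusted p = 0.0379 in limma), and was -0.26 ± 0.43 at 48 h (adjusted p = 0.769). At 24 h its signals were 369 to 2346 in controls and 76.3 to 830 with lactacystin, so the groups overlapped. They spread widely at 48 h as well, from 121 to 2535 and from 50.4 to 2655. Ager, the RAGE receptor gene, was 0.85 ± 0.34 and 0.54 ± 0.34 (adjusted p = 0.118 and 0.372 in limma). Htr1b was 0.47 ± 0.24 and -0.40 ± 0.24 (adjusted p = 0.211 and 0.327).

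EF-hand proteins outside the S100 family moved in both directions. Of 25 listed, 17 were tested; 2 rose and 4 fell at 24 h (median -0.24), and 2 rose and 3 fell at 48 h (median 0.03). The shares of all probe sets were 8.20% rising and 6.66% falling at 24 h, and 6.77% and 3.57% at 48 h, so the count of EF-hand genes that rose is near the background. The risers were Capns1, the small calpain subunit (0.47 ± 0.10 and 0.39 ± 0.10, adjusted p = 0.00915 and 0.0303 in limma), and Calu, a calcium-binding protein of the secretory pathway (0.41 ± 0.12 and 0.45 ± 0.12, adjusted p = 0.0411 and 0.0338). Vsnl1, a neuronal calcium sensor, fell by 0.92 ± 0.15 at 24 h and by 0.88 ± 0.15 at 48 h (adjusted p = 0.00256 and 0.00489 in limma). The calcium buffers Calb1 and Calb2 were -0.55 ± 0.25 and -1.14 ± 0.15 at 24 h (adjusted p = 0.163 and 0.0007 in limma) and -0.86 ± 0.25 and -0.52 ± 0.15 at 48 h (adjusted p = 0.0481 and 0.0526). Hpca, the hippocampal calcium sensor, fell at 24 h by 0.69 ± 0.20 (adjusted p = 0.0407 in limma) and was -0.62 ± 0.20 at 48 h (adjusted p = 0.0768).

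By RefSeq order, 8 members lie on mouse chromosome 3 and S100b on chromosome 10. S100a11 and S100a10 are next to each other, with 56 protein-coding genes between S100a9 and S100a11. S100a1 and S100a13 are also neighbours and start head to head, so that 104 bases of their upstream windows are the same. Of these neighbours, S100a13 rose at 48 h and S100a1 did not pass against its controls. Both were higher at 48 h than at 24 h among the lactacystin arrays, though S100a1 passed the filter only through its 48 h groups. Among the controls the corresponding changes differed, at 0.89 ± 0.24 for S100a1 and -0.15 ± 0.14 for S100a13 (adjusted p = 0.652 and 0.918 in limma). S100a4 and S100a6 lie 1 protein-coding gene apart, and at 48 h S100a6 rose while S100a4 did not pass.

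**Figure D4:**
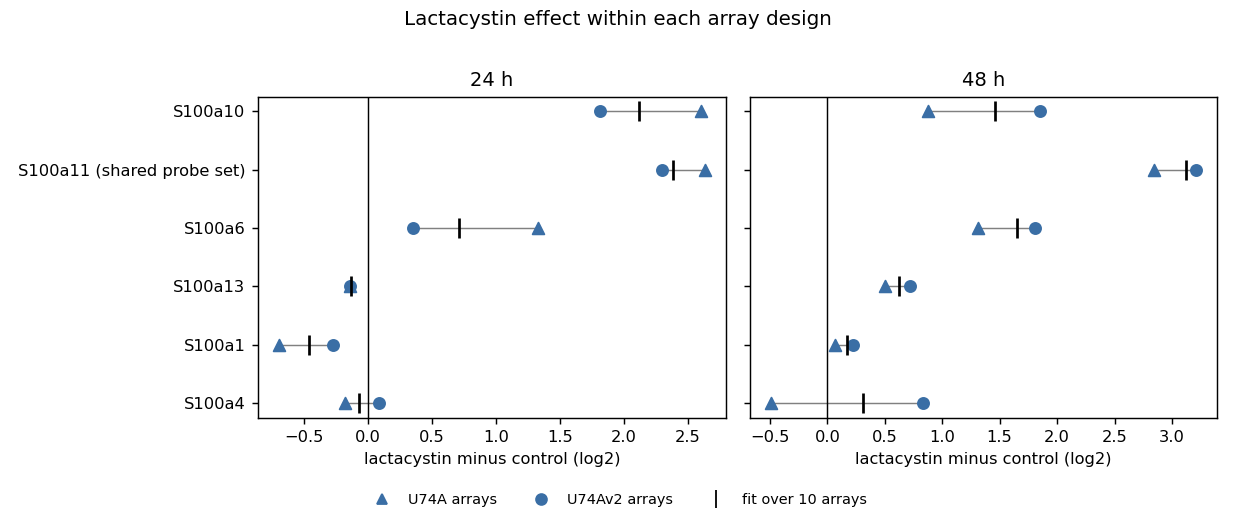
Lactacystin minus control (log2) for the 6 tested members within the U74A arrays (triangles), within the U74Av2 arrays (circles) and in the fit over 10 arrays (bars), at 24 h and 48 h. The S100a11 probe set has similar values in both designs (2.63 and 2.30 at 24 h), while S100a6 at 24 h (1.33 and 0.35), S100a10 at 48 h (0.88 and 1.85) and S100a4 at 48 h (-0.49 and 0.83) lie farther apart.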

How the data were processed

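The deposited values are intensities, 1 linear summary signal per probe set. MAS5 is the tool listed per the submitters' processing notes; its version is not known here. U74A (10043 probe sets) and U74Av2 (12488) are separate deposited tables, with median signals from 140.55 to 234.1, and no arrays were identical. Each labelling used 7 µg of total RNA. Without 66 control probe sets, 9977 shared probe sets were scaled per array to a 2% trimmed mean of 500, and the lowest 30% by mean (2993) were left out. Symbols came from the platform annotation, updated by Entrez identifier through RefSeq (GRCm38.p6) for 10839 of 10855 U74Av2 probe sets with 1 symbol. The probe set with the highest mean stood for its gene.

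limma 3.58.1 (R 4.3.3; lmFit, eBayes with trend, two-sided) fitted the 4 groups plus array design, with 5 residual degrees of freedom (6 over both times), and was tested on simulated data. Every adjusted p in the text comes from limma. Probe sets on U74Av2 alone were fitted among 8696 on 6 arrays, with 2 residual degrees of freedom. A batch shared by the arrays of a design cannot be told apart from the design. Likeness is Pearson's r. Named were all members, other S100 genes, Anxa1 and Anxa2, up to 3 genes of each other list with the largest passing changes, and the 2 genes closest in pattern to each member; Anxa6, Ager, Htr1b, Cacybp, Fabp7, Aqp4, Syt1, Calb2, Anxa4, Anxa7, Capns1, Calu and marker genes named as not passing were chosen after their values were seen. Members and lists were chosen with earlier results of these data known. Alternatives were other pseudocounts, scalings and filters, no design covariate, U74Av2 alone, a replicate block, 1 time alone, eBayes without trend, other probe sets and each array left out.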

Additional observations from a re-analysis of the deposited data

Results flagged for a closer look

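The second shared probe set of S100a13 had a lactacystin effect that differed between the times by a direct test. The effect at 48 h minus that at 24 h was 0.99 ± 0.18 (SE, adjusted p = 0.0255 in limma), with 0.90 within U74A and 1.03 within U74Av2. At 24 h its change was -0.23 and at 48 h 0.77. By the brighter S100a13 probe set the same difference was 0.75 and did not pass (adjusted p = 0.0709). Among single genes outside the S100 family, Gfap (2.04 ± 0.21, adjusted p = 0.00186 in limma) and Aqp4 (2.38 ± 0.25, adjusted p = 0.00186), both astrocyte markers, had a difference of the same sign.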

How the results depend on the processing

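The rises of the S100a11 probe set passed at both times in all 21 alternatives, with changes from 2.09 to 2.53 at 24 h and from 2.94 to 3.41 at 48 h. S100a10 at 24 h also passed in all 21 by its main probe set (1.81 to 2.32); by its dim U74Av2 probe set the sign was reversed there (-0.65, not past the threshold). Without the array design covariate 1 member passed at 48 h, the S100a11 probe set; with an array left out, 2 to 4 members passed at 48 h and 0 to 1 for the difference between the times. S100a6 over both times (1.18) did not pass on the U74Av2 arrays alone (1.08, adjusted p = 0.0711 in limma) or without the design covariate (0.98, adjusted p = 0.228). Of 578 values of single genes under alternatives, 563 kept their direction where called and their side of the threshold, 9 no longer passed, 5 newly passed and 1 reversed; 10 of 318 values that had not passed changed sign. With the replicate block S100a6 passed at 24 h (0.92, adjusted p = 0.0206), which made 3 members; over all probe sets 780 passed at 24 h with the block and 1038 without it. Correlations of same-numbered residuals ran from -0.408 to 0.266, and 1 of 10 arrays was closest to an array of its own number. These residuals were taken after group and design were fitted. Replicate 1 was the U74A array in every group except lactacystin at 48 h, so the design term removes much of any replicate effect. The fit also makes the residuals of the 2 controls of a group opposite. This check therefore cannot show whether replicate numbers pair the arrays. Over all probe sets, 1038 passed at 24 h, against 248 without the design covariate, 308 without control replicate 2, 591 without control replicate 1 and 558 on U74Av2 alone. At 48 h 722 passed, against 110 without the covariate, 232 and 209 without control replicate 1 or 2, 388 on U74Av2 alone and 440 in the arrays of 48 h alone. Where a control array was left out, the lone control was assumed to vary like the other groups. Median scaling moved the median change of all probe sets at 48 h from 0.04 to -0.11. The cause of these shifts was not tested. The pseudocount of 32 exceeded 19.9% to 27.8% of the values of an array, which limits S100a1, S100a8, S100a9 and S100b.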
